A study of Bos taurus with 24 samples.

Results

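The miRNAs bta-miR-671, bta-miR-296-5p and bta-miR-669 (here miR-671, miR-296-5p and miR-669) are 3 of the 796 miRNAs listed for each breed in the deposited tables of mammary gland small RNA. They were chosen by name, as single miRNAs whose normalized counts fell after feed restriction in Holstein cows, so their HOLS values are a description and carry no test. The libraries came from biopsies of 5 Holstein (HOLS) and 6 Montbéliarde (MONT) cows in midlactation, each biopsied in the control period before restriction (CONT) and again after 6 days of restriction (REST), at the back of the udder on alternate sides. The labels give the restriction as 60% of the net energy of lactation calculated before it, and the study's methods give a lower percentage. All 11 cows were multiparous, and the CONT cows were fed a total mixed ration ad libitum. The labels list a sixth HOLS cow, for whose libraries no counts were available. The study's methods state that a HOLS cow was left out because of mastitis.

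MiRNAs are short RNAs cut from a hairpin precursor, and they lower the output of mRNAs that pair with their seed, bases 2 to 8 of the mature strand. Either arm of the hairpin can be loaded, so the arms of a single precursor can be present at different levels. In lactating mammary gland, the miRNA pool comes from secretory epithelium together with stroma, vessels and blood cells. MiR-671 is known in other mammals for cutting the circular RNA CDR1as, and miR-296 for its role in endothelial cells and angiogenesis. The gene table used here (RefSeq, ARS-UCD2.0, not the build of the authors' alignment) places MIR671 inside CHPF2, which encodes a factor of chondroitin synthesis. It places MIR296 in the lncRNA gene LOC107133071, with MIR6123 before it and NPEPL1 after it. MIR669 overlaps no gene and lies between ACBD6 and XPR1.

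The total of miRNA counts ranged from 7431936 to 16808976 in HOLS CONT, from 11108829 to 18149037 in HOLS REST, from 6087865 to 11395785 in MONT CONT and from 7817027 to 18913916 in MONT REST. The REST library held more counts than the CONT library of the same cow in 9 of 11 cows, and the exceptions were HOLS cow 9195 and MONT cow 9615. The study reports a smaller share of clean reads and more adapter reads in MONT than in HOLS libraries. It proposes this lower quality, among other reasons, for finding no changed miRNA in MONT. The part of library quality in the MONT changes and in the levels between breeds was not tested here. Fixed miRNA lists for the tissue showed epithelium in every library, with all 6 markers (the miR-200 family, miR-141 and miR-205) listed above 0 and a sum from 12652 to 56518 CPM (counts scaled to a common library size). On average miR-141 held most of this sum, at 14.9 log2 CPM in HOLS and 14.1 in MONT, against 12.1 and 11.4 for miR-200c. Of the 4 muscle markers, miR-206 was not among the miRNAs listed. The 3 others summed to between 38.8 and 170 CPM.

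At 2 of the 3 miRNAs the counts were small. MiR-671 held 21 to 62 counts in the HOLS libraries and 8 to 43 in the MONT libraries, and it ranked 280 of 754 miRNAs detected in HOLS and 311 of 759 in MONT. MiR-296-5p held 19 to 79 counts in HOLS and 17 to 64 in MONT, with ranks of 289 and 275. MiR-669 was not scarce in this sense. It held 407 to 977 counts in HOLS and 219 to 1135 in MONT, and it ranked 145 and 155. Per total count of all libraries of a breed (in CPM), this came to 2.95 for miR-671, 2.73 for miR-296-5p and 47.6 for miR-669 in HOLS. In MONT the values were 2.04, 3.45 and 40.2. No other miRNA listed had the same counts as any of the 3 in every library.

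In HOLS, miR-671 had 43.4, 48.8, 55.4, 59.8 and 46.5 normalized counts in CONT for cows 1155, 1165, 2182, 8200 and 9195. In REST the same cows had 23.8, 27.6, 27.6, 31.5 and 31.4. Every REST value lay below every CONT value, which was so for 5.61% of the 374 miRNAs tested in HOLS, and the miRNA was chosen for this contrast. The change per cow was -0.82 ± 0.16 on the log2 scale (pseudocount 1, SD, n = 5). The SD between the CONT libraries was 6.66 normalized counts, and counting error alone would give 7.62. In REST these values were 3.17 and 5.16, so the spread between these HOLS cows was no larger than that of counting. These are the libraries of the choice. In MONT, which the choice did not use, the SD of miR-671 was larger than that of counting. It was 6.79 against 5.45 normalized counts in CONT and 7.12 against 4.14 in REST.

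MiR-296-5p in HOLS CONT had 66.0, 46.7, 43.95, 50.9 and 31.5 normalized counts in the same order of cows. In REST it had 21.4, 24.98, 29.3, 20.7 and 28.3. Every REST value lay below every CONT value, as for 5.61% of the 374 miRNAs tested in HOLS, and miR-296-5p was chosen for this contrast. Cow 9195 moved from the lowest CONT value to the second highest REST value and fell by 10.0%. Cow 1155 moved from the highest CONT value to the second lowest REST value and fell by 67.5%. The change per cow was -0.88 ± 0.56 (log2, SD, n = 5), with a wider spread than that of miR-671.

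For miR-669 in HOLS, CONT held 816, 675, 663, 680.2 and 642 normalized counts. In REST it held 576, 539, 460, 599 and 513. The periods were again separate, as for 5.61% of the 374 miRNAs tested in HOLS, and miR-669 too was chosen for this contrast. The change per cow was smaller than for the 2 scarce miRNAs, -0.37 ± 0.14 (log2, SD, n = 5). With these larger counts, the counting SD was 27.7 normalized counts in CONT and 22.4 in REST, against 69.1 and 54.6 between cows.

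**Figure D1:**
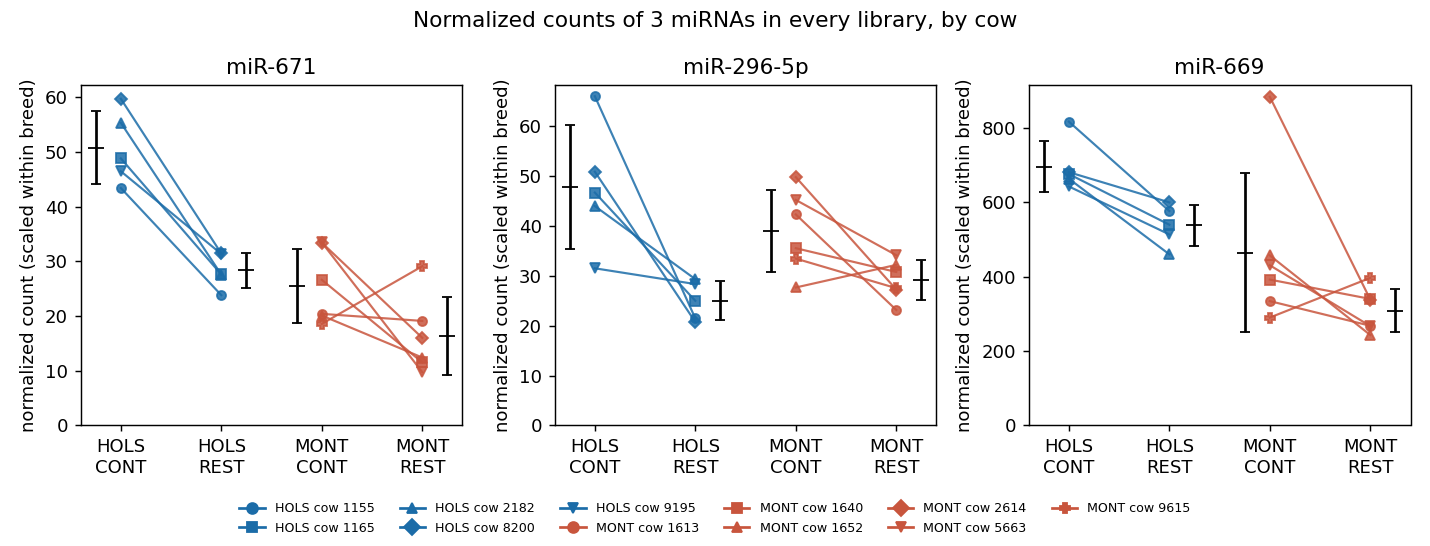
Normalized counts (y axis, scaled within each breed) of miR-671, miR-296-5p and miR-669 in CONT and REST for 5 HOLS and 6 MONT cows. Each line joins the libraries of a cow, and black bars give the mean and SD of a group. All HOLS lines go down, and among the MONT lines cow 9615 goes up for miR-671 and miR-669 and cow 1652 for miR-296-5p.

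MONT cows were not used in the choice of these miRNAs, so the change was tested there. All 3 were lower on average after restriction in MONT and each was lower in REST in 5 of 6 cows, but none passed the threshold. Falling in at least 5 of 6 cows was seen for 29.2% of the 349 miRNAs tested in MONT. The quasi-likelihood test of edgeR, with p-values adjusted over all 349 by the Benjamini-Hochberg method, called 0% of miRNAs in MONT at a threshold of 0.05. Unadjusted, 47 (13.5%) had p under 0.05 by edgeR, and DESeq2 and limma-voom also gave 0 adjusted calls. An unadjusted p under 0.05 in the lower direction was found for 8.31% of all miRNAs tested and for 2 of the 3, miR-671 and miR-669. This fit does not pair the libraries of a cow. In an edgeR fit with the cow as a block, which pairs them, the unadjusted p was 0.0600 for miR-671 and 0.0697 for miR-669, both above 0.05. The median fitted log2 fold change was -0.61 over the 3 and -0.01 over all 349.

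MiR-671 in MONT had a median of 23.5 normalized counts in CONT (lowest 18.6, highest 33.5). Its REST median was 14.2 (lowest 9.75, highest 29.1). The groups overlapped through cow 9615, which had the lowest CONT value and the highest REST value. The mean was 25.4 ± 6.79 before restriction and 16.3 ± 7.12 after it (SD, n = 6). The fitted log2 fold change was -0.68 (95% interval -1.31 to -0.04), and edgeR gave an adjusted p of 0.355. With the cow as a block, the interval ran from -1.44 to 0.04 and included 0. A two-sided exact sign-flip test of the 6 cow changes gave p = 0.0938, where the smallest p that 6 cows allow is 0.0313.

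Normalized counts of miR-296-5p in MONT CONT had a median of 38.9 (lowest 27.6, highest 49.8), and those in MONT REST a median of 29.1 (lowest 23.1, highest 34.1). The groups overlapped between 27.6 and 34.1. The mean moved from 39.0 ± 8.21 to 29.2 ± 3.97 (SD, n = 6), with a fitted log2 fold change of -0.42 (95% interval -0.87 to 0.03) and, by edgeR, an adjusted p of 0.405. The exact sign-flip test gave p = 0.0938. Cow 1652 was the one in which it was higher in REST, at 32.2 against 27.6. The interval of the fitted change includes 0 and also falls as large as -0.87.

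For miR-669 in MONT, the CONT median was 411 normalized counts (lowest 290, highest 882) and the REST median 303 (lowest 243, highest 396). The CONT value of cow 2614, at 882, stood far above the 290 to 457 of the other 5 cows. The mean moved from 464 ± 214 to 309 ± 58.8 (SD, n = 6). The fitted log2 fold change was -0.61 (95% interval -1.19 to -0.02, adjusted p = 0.355 by edgeR), and the exact sign-flip test gave p = 0.125. With the cow as a block, the interval ran from -1.09 to 0.05 and included 0. Without cow 2614 the fitted change was -0.30, with 0.869 as edgeR's adjusted p. Between its CONT and REST libraries this cow also had log2 changes of -1.02 in the summed CPM of the epithelium list (the fixed marker miRNAs), -0.89 in that of red blood cells, -0.24 in that of endothelium, 1.02 in that of leukocytes, 1.31 in that of fibroblasts and smooth muscle and 1.71 in that of muscle. The part of these in the change of miR-669 was not tested.

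**Figure D2:**
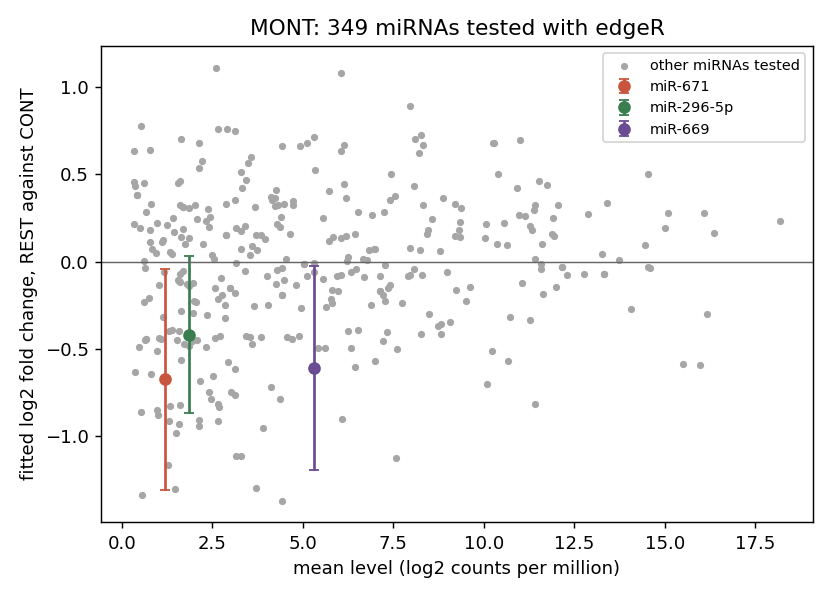
Fitted log2 fold change of REST against CONT in MONT (y axis) against mean level in log2 CPM (x axis) for the 349 miRNAs tested with edgeR. Coloured points with 95% intervals are miR-671, miR-296-5p and miR-669, at -0.68, -0.42 and -0.61, and grey points are the other miRNAs, whose median lies near 0. The intervals come from the fit without the cow as a block.

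Whether miR-671 passed in MONT depended on cow 9615. Without this cow, miR-671 passed by edgeR (log2 fold change -0.96, adjusted p = 0.0391), as did 12.8% of the 358 miRNAs then tested. MiR-669 then had -0.80 with an adjusted p of 0.0568, and miR-296-5p had -0.46 with 0.186. With the cow as a block as well, an alternative chosen after the data were seen, miR-671 had an adjusted p of 0.0145 and miR-669 of 0.00795, miR-296-5p had 0.153, and 39.1% of the 358 miRNAs were called by edgeR. In the fit of all 6 MONT cows with the block, 0% of the 349 were called and the adjusted p was 0.292, 0.310 and 0.292 for miR-671, miR-296-5p and miR-669.

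In cow 9615, miR-671 went from 15 to 18 counts and miR-669 from 234 to 245 while the library total fell to 0.855 of its CONT value. On the normalized scale these changes were 0.62 and 0.45 (log2). MiR-296-5p did not share this direction in cow 9615, with 27 and 17 counts and a log2 change of -0.27. The same cow also stood apart in the epithelium list. Its 6 markers summed to 17184 CPM in CONT and 30697 in REST, a log2 change of 0.84, whereas in the other 5 MONT cows the sum was lower in REST, by log2 changes from -1.02 to -0.10. In cow 9615 the sum changed by -1.03 for muscle (96.9 to 47.5 CPM), -0.68 for leukocytes, -0.11 for fibroblasts and smooth muscle, 0.29 for endothelium and 0.67 for red blood cells. Over all MONT cows the epithelium sum lay between 17184 and 46064 in CONT and between 12652 and 30697 in REST. By edgeR's test 0 of the 6 markers passed, with a median log2 fold change of -0.46. In HOLS the epithelium sum lay between 37085 and 44876 in CONT and between 24699 and 56518 in REST. It was higher in REST in cow 1165, by 0.34, and lower in the other HOLS cows, by log2 changes from -0.62 to -0.004. The sum mostly followed miR-141, whose fitted change in HOLS was 0.06. It was -0.42 for miR-200c and -0.55 for miR-200b, and 4 of the 6 markers had a change below 0. All 3 miRNAs were lower in REST in every HOLS cow, but they were chosen for this fall, so it cannot be set against the epithelium sum. In bulk tissue, fewer cells of a type and less RNA per cell cannot be told apart, and the part of epithelium in these changes was not tested.

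The markers of fibroblasts and smooth muscle were miR-143, miR-145, the miR-199 arms and miR-214. Their summed level was higher in REST than in CONT in every HOLS cow, but not in every MONT cow. This sum was mostly miR-143, at a mean of 17.7 log2 CPM in HOLS and 18.2 in MONT. The next marker, miR-199a-3p, had 9.39 and 10.3. The study lists miR-143 as higher in HOLS REST. Of the 6 markers, 0 had a fitted change below 0 in either breed. In HOLS their sum was 149228 to 216644 CPM in CONT against 218571 to 289108 in REST, higher in REST in 5 of 5 cows. In MONT it was 187826 to 367049 in CONT against 214103 to 464104 in REST, higher in REST in 4 of 6 cows. None of these 6 markers passed edgeR's test in either breed (0 of 6 adjusted, median log2 fold changes 0.29 in HOLS and 0.67 in MONT), and with the cow as a block, which called 16.3% of the 374 HOLS miRNAs, 2 of them and 3 of the 6 epithelium markers passed in HOLS. Of 3 red blood cell markers, 4 leukocyte markers and 2 endothelium markers, 0 passed without the block in either breed, and with it 1 of each list passed in HOLS and 0 in MONT. The red blood cell sum was 2580 to 3991 CPM in HOLS CONT and 3566 to 4307 in HOLS REST, and 2451 to 5226 and 1212 to 4338 in MONT. For leukocytes it was 1739 to 2840 and 1632 to 3778 in HOLS, and 1604 to 3488 and 1793 to 3478 in MONT. For endothelium it was 24998 to 33315 and 30159 to 42622 in HOLS, and 23346 to 29156 and 18583 to 30228 in MONT. Their part in the changes of the 3 miRNAs was not tested.

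Counting error was wide for the 2 scarce miRNAs. For a single cow, the pair of counts of miR-671 gave 95% intervals of the log2 change, for counting error alone, that lay below 0 in 3 of 6 MONT cows and above 0 in none. In MONT cow 5663, with 20 and 8 counts, the interval ran from -3.17 to -0.54 around a change of -1.68. For miR-296-5p the interval lay below 0 in 2 of 6 MONT cows. For miR-669 it lay below 0 in 5 and above 0 in 1, cow 9615, where it ran from 0.19 to 0.72. The changes of miR-669 in single MONT cows went from -1.38 to 0.45. In MONT the counts themselves, without scaling, were lower in REST in 4 of 6 cows for miR-671 and in 3 of 6 for miR-296-5p and miR-669. In the remaining cows with a lower normalized value, the REST library was deeper, by ratios of the totals from 1.30 to 1.45 (cows 1613, 1640 and 5663). Without TMM, on library size only, the fitted changes in MONT were -0.75, -0.45 and -0.70 for miR-671, miR-296-5p and miR-669.

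**Figure D3:**
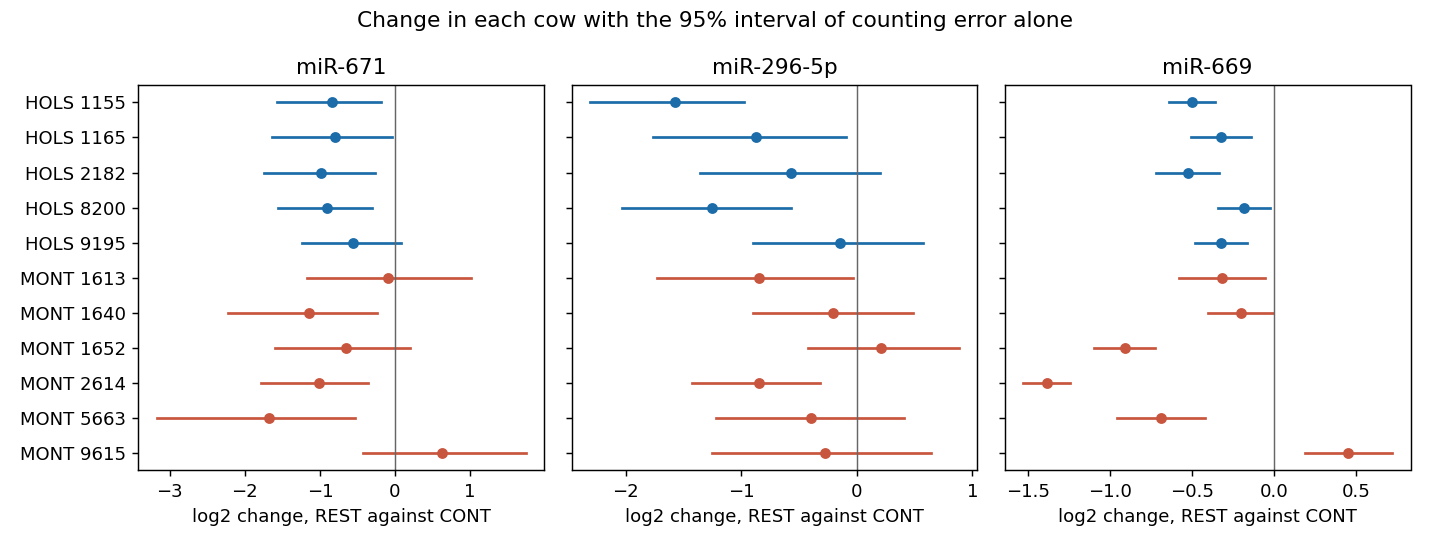
Change of normalized counts between CONT and REST on the log2 scale (x axis) in each of 5 HOLS and 6 MONT cows (y axis) for the 3 miRNAs. Lines give the 95% interval of counting error alone, exact binomial on the pair of counts, and are widest for miR-671, up to -3.17 to -0.54 in MONT cow 5663.

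MiR-296-3p, the other arm of the miR-296 hairpin, did not pass in either breed in the fit without the cow as a block. In HOLS its normalized counts were 122 ± 21.1 before restriction and 109 ± 20.2 after it (SD, n = 5). Its log2 fold change was -0.15 (95% interval -0.53 to 0.23, adjusted p = 0.667 by edgeR), beside 2.41% of the 374 HOLS miRNAs called. In MONT it had 113 ± 52.3 and 114 ± 25.1 (SD, n = 6), a log2 fold change of 0.04 (95% interval -0.53 to 0.61, adjusted p = 0.939). The neighbouring miR-6123 stood at 24.2 ± 5.12 and 29.9 ± 8.47 normalized counts in HOLS (SD, n = 5), with a log2 fold change of 0.27 (adjusted p = 0.533 by edgeR). In MONT it had 19.6 ± 6.72 and 23.1 ± 4.88 (SD, n = 6), with 0.21 and 0.658. In this fit, which does not pair the libraries of a cow, 0 of these 2 related miRNAs passed in either breed. With the cow as a block, edgeR gave them adjusted p of 0.735 and 0.616 in MONT. In HOLS the block called 16.3% of the 374 miRNAs, and its values for these 2 are not given. MiR-298, often found beside miR-296 in other mammals, was not among the miRNAs listed, and no listed miRNA carried another arm of miR-671 or miR-669.

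The 3p arm was the more abundant strand of miR-296 in all 22 libraries. The share of the 5p arm among the counts of both arms does not depend on library scaling, and it was compared after the data were seen. In HOLS it was 32.2%, 30.5%, 24.1%, 35.4% and 19.1% in CONT for cows 1155, 1165, 2182, 8200 and 9195, and 13.4%, 23.5%, 20.9%, 15.8% and 21.4% in REST. It was lower in REST in 4 of 5 cows, and the periods overlapped through cow 9195. MiR-296-5p was chosen for its fall in these HOLS libraries, so a lower share there is no independent result. In MONT the share lay between 13.8% and 40.3% in CONT and between 15.5% and 27.2% in REST, with means of 28.03% ± 10.5 and 20.8% ± 4.35 (SD, n = 6). It was lower in 4 of 6 cows and higher in cows 1652 and 9615. The log2 ratio of 5p to 3p changed by -0.51 ± 0.73 in MONT (SD, n = 6, two-sided exact sign-flip p = 0.188). Wilson 95% intervals for a single library were wide, such as 29.4% to 52.3% for cow 5663 in CONT, and cover counting error only.

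**Figure D4:**
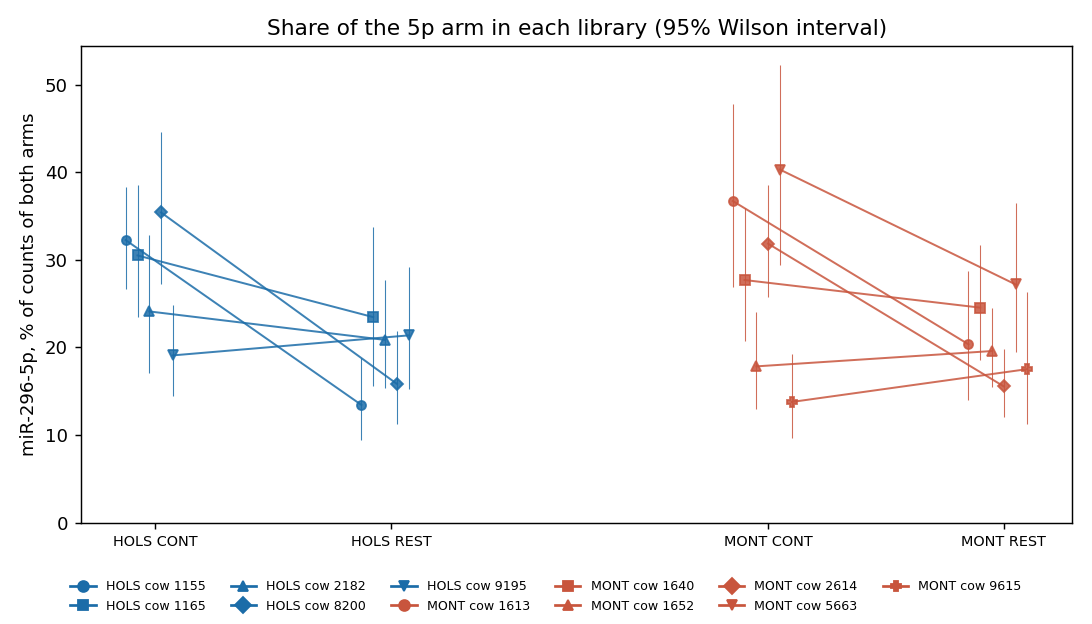
Share of miR-296-5p among the counts of both arms of miR-296 (y axis, percent) in each library, by breed and period, with 95% Wilson intervals. Lines join the libraries of a cow. The share falls in 4 of 5 HOLS and 4 of 6 MONT cows and stays below 50% in every library. MiR-296-5p was chosen for its fall in the HOLS libraries.

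The level between breeds was described on the mean of both libraries of each cow. This mean includes the HOLS libraries on which the miRNAs were chosen, so no test is given. For miR-671 it was 2.84, 3.04, 3.37, 3.55 and 3.06 CPM in the HOLS cows and went from 1.67 to 2.50, with a median of 2.01, in the 6 MONT cows. All MONT cows lay below all HOLS cows in this mean. The share of all miRNAs that separated the breeds in this way was not counted, so the separation is not shown to be particular to miR-671. By period, the CONT libraries of the breeds were separate (3.75 to 4.52 CPM in HOLS, 1.78 to 3.29 in MONT), and the REST libraries overlapped (1.93 to 2.58 in HOLS, 0.942 to 2.66 in MONT). The fitted log2 fold change of MONT against HOLS, on counts summed per cow, was -0.63 (SE 0.17).

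MiR-669 was at 49.6 ± 5.38 CPM in HOLS (SD, n = 5) and 38.0 ± 11.8 in MONT (SD, n = 6), with a fitted log2 fold change of -0.40 (SE 0.17). MONT cow 2614, at 61.5, lay above all HOLS cows, and the other 5 MONT cows lay between 29.0 and 36.0. Without cow 2614 the fitted value was -0.55.

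MiR-296-5p was at 2.93 ± 0.4997 CPM in HOLS (SD, n = 5) and 3.34 ± 0.439 in MONT (SD, n = 6), with a fitted log2 fold change of 0.24 (SE 0.16). The breeds overlapped, with HOLS cows from 2.34 to 3.71 and MONT cows from 2.85 to 3.91.

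**Figure D5:**
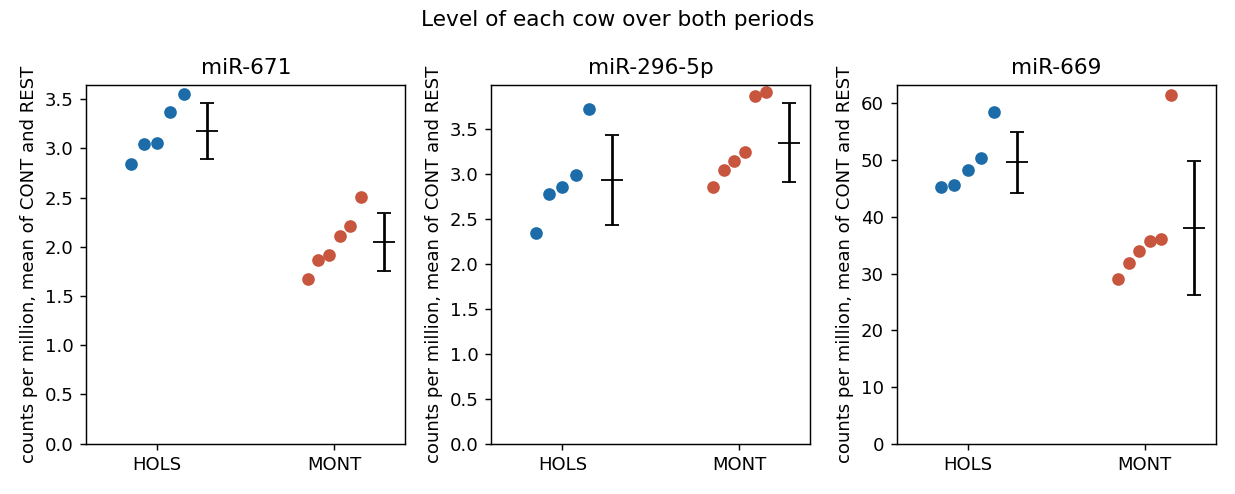
Level of miR-671, miR-296-5p and miR-669 (y axis, CPM, mean of CONT and REST) for each of 5 HOLS and 6 MONT cows. Points are cows and black bars are the mean and SD. For miR-671 all MONT cows, at 1.67 to 2.50, lie below all HOLS cows, at 2.84 to 3.55. The share of other miRNAs separated in this way was not counted.

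By group, miR-671 ran from 4.09 ± 0.388 CPM in HOLS CONT through 2.49 ± 0.667 in MONT CONT and 2.26 ± 0.238 in HOLS REST to 1.598 ± 0.635 in MONT REST (SD, n = 5 in HOLS and 6 in MONT). HOLS CONT, from 3.75 to 4.52, did not overlap MONT CONT, from 1.78 to 3.29, and each later pair of neighbours in this order overlapped. For miR-296-5p the order was HOLS CONT (3.88 ± 1.137), MONT CONT (3.81 ± 0.756), MONT REST (2.87 ± 0.385) and HOLS REST (1.99 ± 0.286), with overlap between all neighbours. MiR-669 followed the order HOLS CONT (56.3 ± 7.95), MONT CONT (45.7 ± 21.4), HOLS REST (42.9 ± 5.07) and MONT REST (30.4 ± 5.55). HOLS REST, from 37.5 to 49.2, did not overlap MONT REST, from 23.9 to 36.3. How many other miRNAs were separate between breeds within a period was not counted. These orders include the HOLS values on which the miRNAs were chosen and carry no test. For the same reason the difference between the breeds in the change itself was not tested.

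Among the 348 other miRNAs tested in MONT, those most like miR-671 over the 12 MONT libraries were miR-500, miR-2898 and miR-29d-5p, with Spearman correlations of log2 normalized counts of 0.85, 0.85 and 0.85. In the 10 HOLS libraries the same pairs had 0.81, 0.88 and 0.87. The miRNAs most like miR-296-5p in MONT were let-7a-3p (0.81), the strand opposite to let-7a, miR-1343-3p (0.80) and miR-11986b (0.78), with 0.87, 0.82 and 0.64 in HOLS. For miR-669 they were miR-652 (0.85), miR-423-5p (0.81) and miR-193a-3p (0.80), with 0.49, 0.16 and 0.90 in HOLS. Libraries share the cow, the period and the scaling across all miRNAs, and these values are descriptions. The HOLS correlations also include the libraries on which miR-671, miR-296-5p and miR-669 were chosen. The study lists miR-500, miR-2898, miR-29d-5p, let-7a-3p and miR-193a-3p as lower in HOLS REST too. The HOLS values are therefore no independent check of those in MONT.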

How the data were processed

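Small RNA of mammary biopsies was measured in 22 libraries of 11 cows. Per the labels and the study's methods, the authors prepared TruSeq libraries, trimmed and cleaned the reads with FASTX-Toolkit, ran ncPRO-seq and aligned with miRDeep2 against the bovine genome btau5.0.1 and miRBase. The labels name bcl2fastq 2.17.1.14 and DESeq2 1.18.1. The counts used were deposited by the authors as raw whole numbers per miRNA. The tables also hold 22 columns of the authors' normalized counts, their group means and their log2 fold changes and p-values, and none of these was used.

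Normalized counts are the counts divided by DESeq2 (1.42.0) size factors estimated within each breed. CPM values use TMM-scaled library sizes over all 22 libraries. Periods within each breed, and breeds on counts summed per cow, were fitted with edgeR 4.0.16 (R 4.3.3), after filterByExpr (minimum count 10) and TMM, by its quasi-likelihood method with Benjamini-Hochberg adjustment over all miRNAs tested, with a threshold of 0.05. Limma 3.58.1 was used for limma-voom. Fold changes and their 95% intervals are on the log2 scale. Changes per cow use a pseudocount of 1. On CPM this pseudocount makes breed differences of scarce miRNAs look smaller, and those differences are given only for the alternatives. Breed values of the 3 miRNAs are printed without a test, since they include the libraries of the choice. Sign-flip tests were exact and two-sided (scipy 1.17.1, numpy 2.4.6). Intervals of single libraries or cows and the counting SD cover counting error only. PCR reads without molecular identifiers are not independent molecules.

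Libraries were paired by cow, as the labels give the animal. Within a cow, deviations from the period means correlated by 0.25 to 0.54 in HOLS and by 0.07 to 0.76 in MONT, except in cow 9615 (-0.33). The study names no block, so the fit without it is the main one.

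The members and lists were chosen with earlier results of these data known. The naming rule takes the 3 miRNAs, other arms of their hairpins, miRNAs with a gene within 50 kb in the gene table, miR-298 and the 3 miRNAs most like each. Its part on shared seeds was not used here. Alternatives were DESeq2, limma-voom, the cow as a block, other scaling and filters, another pseudocount and each cow left out. The steps were tested on simulated data.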

Additional observations from a re-analysis of the deposited data

Results flagged for a closer look

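In MONT CONT, miR-669 had 882 normalized counts in cow 2614 against 290 to 457 in the other 5 cows, and in HOLS CONT it had 816 in cow 1155 against 642 to 680.2. Each value stood apart from its group by more than Dixon's critical ratio. Of 20 groups of 5 or 6 libraries examined (5 miRNAs, 2 breeds, 2 periods), 2 held such a value, where chance alone gives about 1. The CONT library of cow 2614 also held the lowest sum of the 6 MONT CONT libraries in 4 of the 6 marker lists, with 187826 CPM for fibroblasts and smooth muscle, 1604 for leukocytes, 46.1 for muscle and 23346 for endothelium. Its epithelium sum of 28000 CPM and red blood cell sum of 3728 CPM lay inside the range of the other 5. The part of these in the value of miR-669 was not tested.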

How the results depend on the processing

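In MONT, 0 miRNAs were called under every alternative that kept all 6 cows, and leaving out single cows gave 0 to 46, the highest without cow 9615. With the cow as a replicate block and without cow 9615, 140 miRNAs were called, with -0.96 for miR-671 and -0.73 for miR-669, and no miRNA was called with the block alone. Leaving out single MONT cows moved the log2 fold change of miR-671 from -0.96 to -0.46, of miR-296-5p from -0.56 to -0.27 and of miR-669 from -0.80 to -0.30. In HOLS, 9 miRNAs were called, against 26 with DESeq2, 17 with limma-voom, 61 with the replicate block, 20 on library size only, 5 without a filter and 3 to 14 with single cows left out. On library size only the described HOLS changes of miR-671 and miR-669 were -0.99 and -0.55. Between breeds, 86 of the 410 miRNAs tested were called, and 47 to 90 with a cow left out, the lowest without HOLS cow 1165. The breed difference then ranged from -0.68 to -0.55 for miR-671 and from -0.55 to -0.34 for miR-669, and on the mean log2 CPM per cow, with cows left out after the data were seen, from 0.14 to 0.23 for miR-296-5p. On library totals, also chosen after the data were seen, it was 0.25 for miR-296-5p and -0.35 for miR-669.

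MiR-296-3p changed sign in MONT with a mean count of at least 10 as filter (-0.018) and with cows left out (-0.057 to 0.24). The breed difference of miR-6123, near 0, was 0.067 on library size only and from -0.11 to 0.091 with cows left out. In MONT the direction of miR-671, miR-296-5p and miR-669 was the same under every alternative run. It was also the same in HOLS, where the choice of the miRNAs set it, and between breeds, which include the HOLS libraries of the choice. The causes of these shifts were not tested, beyond the fewer cows or other miRNAs that an alternative itself brings. With 8 to 43 counts of miR-671 in a MONT library, counting error limits what single cows show.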
